A study of Mus musculus with 30 samples.

Results

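Transcripts of B cells and of the antibody-secreting plasma cells derived from them were followed in the mouse ventral prostate (VP) through 9 genes, Cd79a, Cd79b, Ms4a1, Jchain, Mzb1, Pou2af1, Ighm, Igha and Igkc. The genes were taken by name and found by matching the Ensembl identifiers of the count tables to symbols, which located all 9 among 39179 identifiers, of which 37607 had a symbol. Every one of the 9 passed the filter on low counts in every comparison, so none was left untested.

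The VP came from 30 male C57BL/6 mice, 5 in each of 6 groups, and each mouse gave 1 library of polyadenylated RNA. From weaning, the mice were fed isocaloric normolipidic diets whose fat was linseed oil (LO, rich in ω-3 polyunsaturated fatty acids), soybean oil (SO, rich in ω-6 polyunsaturated fatty acids) or lard (PF, rich in saturated fatty acids), for 12 or 32 weeks. Different mice were killed at each time, so mice on a diet for longer were also older, and time on the diet and age cannot be told apart. No group went without an added fat, and the comparisons are between diets or between times. In whole tissue, more cells of a type and more RNA per cell cannot be told apart, and p-values here measure the spread between mice.

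B cells carry a membrane antibody on their surface, and its signal enters the cell through the CD79A and CD79B chains. When activated, B cells become plasmablasts and plasma cells, which lose CD20 and most surface antibody and turn much of their transcription to secreted immunoglobulin. In glands with a mucosal surface, secreted IgA and IgM are joined by the J chain and carried across the epithelium by the polymeric immunoglobulin receptor.

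The genes lie on separate chromosomes of the mouse genome (GRCm38) apart from Ighm and Igha, which share the heavy chain locus. The B cell genes were Cd79a and Cd79b, which encode the signalling chains of the B cell receptor, and Ms4a1, which encodes CD20. Cd79a spans chromosome 7 from 24897381 to 24902197 on the plus strand, Cd79b chromosome 11 from 106311341 to 106314762 on the minus strand, and Ms4a1 chromosome 19 from 11249675 to 11266241 on the minus strand. Pou2af1, at chromosome 9 from 51213708 to 51240080 on the plus strand, encodes the coactivator OBF-1, which acts with octamer-binding factors at immunoglobulin promoters. The plasma cell genes were Jchain, at chromosome 5 from 88519809 to 88527891 on the minus strand, and Mzb1, at chromosome 18 from 35647267 to 35649367 on the minus strand, which encodes an endoplasmic reticulum protein that helps antibody assembly. The antibody genes were the constant regions of the μ heavy chain (Ighm, chromosome 12 from 113418558 to 113422730, minus strand), the α heavy chain (Igha, chromosome 12 from 113254830 to 113260236, minus strand) and the κ light chain (Igkc, chromosome 6 from 70726435 to 70726966, plus strand). Values of Ighm, Igha and Igkc hold constant-region counts and leave out the variable segments, which carry identifiers of their own.

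Per kilobase of annotated exon, Igkc had the highest median of the 9 in each of the 6 groups and Ighm the next. Group medians of CPM (counts scaled to the TMM-adjusted library size) per kilobase ran from 207 (SO, 12 weeks) to 4853 (LO, 32 weeks) for Igkc, from 101 to 2522 for Ighm and from 9.72 to 240.4 for Jchain, with the same lowest and highest groups. On the same scale, Igha medians ran from 4.15 to 56.7, Mzb1 from 0.578 to 7.55 and Pou2af1 from 0.386 to 6.76, again from SO at 12 weeks to LO at 32 weeks. The receptor genes were lowest in LO at 12 weeks and highest in SO at 32 weeks, with medians per kilobase from 0.460 to 4.14 for Cd79a, from 0.533 to 3.86 for Cd79b and from 0.0627 to 0.549 for Ms4a1. All later levels are in CPM without division by length and are compared between mice, not between genes.

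Promoter sequence is shown for the members whose start site is in the RefSeq table (GRCm38.p6), because these genes moved together across mice. So few stretches cannot show whether the promoters of the members share a motif. The table held 3 of the 9, Cd79a, Jchain and Pou2af1. Each line gives the 130 bases, 5′ to 3′ on the gene's strand, that end just before the more upstream of the RefSeq and GENCODE start sites, and capitals mark a motif match.
Cd79a, chr7:24897251-24897380, plus strand: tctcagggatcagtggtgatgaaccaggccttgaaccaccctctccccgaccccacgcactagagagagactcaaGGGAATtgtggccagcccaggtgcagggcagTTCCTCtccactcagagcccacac
Jchain, chr5:88527898-88528027, minus strand: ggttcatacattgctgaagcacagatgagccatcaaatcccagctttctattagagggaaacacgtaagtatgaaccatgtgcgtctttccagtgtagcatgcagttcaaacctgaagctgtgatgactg
Pou2af1, chr9:51213560-51213689, plus strand: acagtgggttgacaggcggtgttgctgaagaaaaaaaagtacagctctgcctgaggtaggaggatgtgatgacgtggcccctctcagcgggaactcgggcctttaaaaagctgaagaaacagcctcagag

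The motifs, searched on both strands, were the immunoglobulin octamer ATGCAAAT, the element ATTCCC of early B cell factor (EBF) and the core GAGGAA of PU.1, and no matches overlapped. The Cd79a stretch held 1 EBF element, from 55 to 50 bases upstream of its end, and 1 PU.1 core, from 24 to 19 bases upstream, both on the minus strand. The Jchain and Pou2af1 stretches held 0 matches to any of the 3 motifs. Among 32851 RefSeq promoter stretches of the same length, 0.868% held the octamer, 5.66% the EBF element and 12.6% the PU.1 core. A match describes letters in this window and is not evidence of binding.

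The libraries held 27590631 to 41301707 counts on genes, and 16.0% to 20.3% of the counted read pairs had been set aside as aligning to more than 1 place. Some libraries stood apart in the members. PF mice 2 and 3 at 12 weeks lay far above the other 3 PF mice, except mouse 3 for Igha. LO mouse 4 and SO mice 1 and 5 at 32 weeks lay well below the rest of their groups. SO mouse 4 at 32 weeks had the highest level of the 3 receptor genes of all 30 mice. Glycam1, which marks the high endothelial venules of lymph nodes, was at 0 in 12 mice and reached at least 0.5 CPM in 5, namely PF mouse 2 at 12 weeks (1.87 CPM), LO mouse 5 (0.539 CPM), SO mouse 4 (0.595 CPM) and PF mice 2 and 3 (1.95 and 1.34 CPM) at 32 weeks. Results that rest on these mice are given with and without them.

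**Figure D1:**
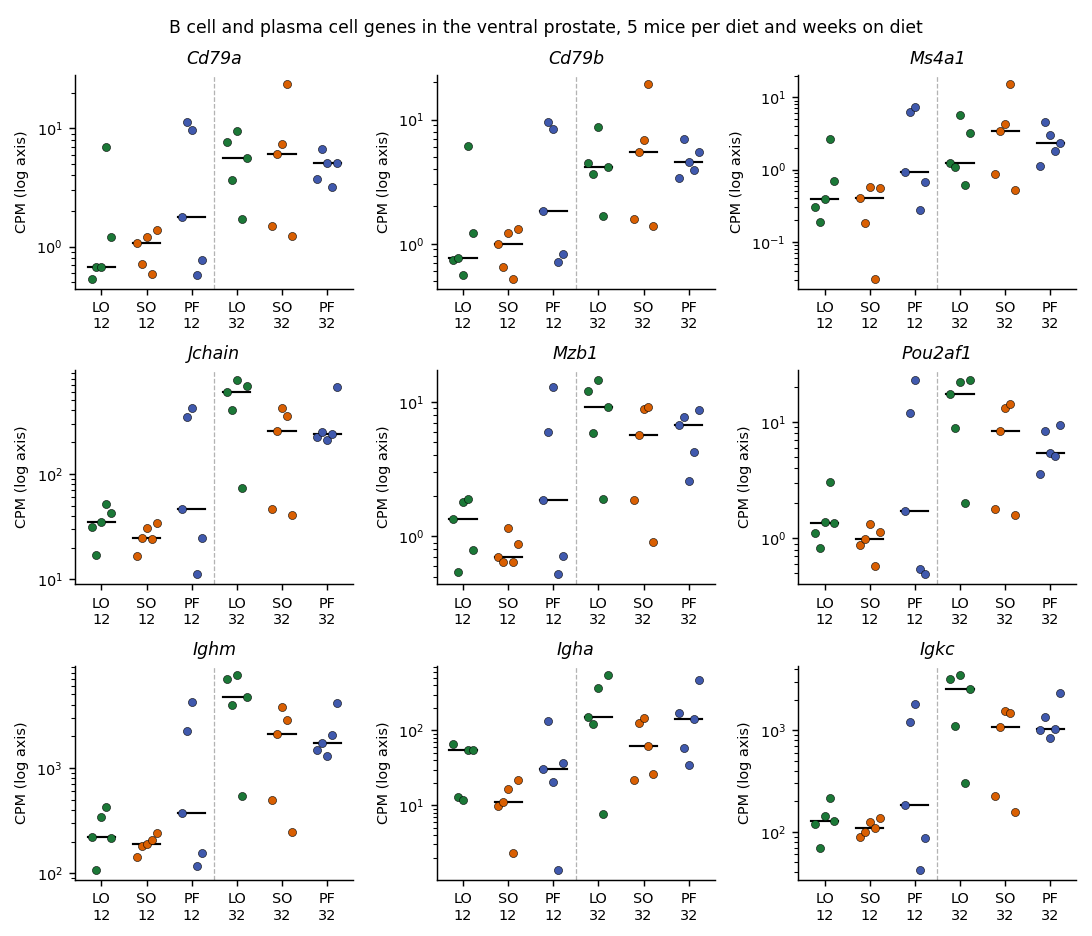
CPM (log axis) of the 9 genes in each mouse, by diet (LO, SO, PF) and weeks on the diet, with a bar at each group's median. At 12 weeks most mice were low and PF mice 2 and 3 were high, except mouse 3 for Igha. At 32 weeks most mice were high and LO mouse 4 and SO mice 1 and 5 were low.

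Cd79a was low in most VP at 12 weeks. Its levels in mice 1 to 5 were 0.534, 0.667, 0.670, 6.91 and 1.21 CPM on LO, 1.07, 0.707, 1.195, 0.583 and 1.39 CPM on SO, and 1.77, 11.4, 9.67, 0.577 and 0.777 CPM on PF. Only LO mouse 4 and PF mice 2 and 3 exceeded 2 CPM at this time, and the ranges of the 3 diets overlapped. At 32 weeks the levels were 7.63, 3.63, 9.48, 1.72 and 5.63 CPM on LO, 1.51, 6.03, 7.35, 23.6 and 1.23 CPM on SO, and 3.73, 6.74, 5.10, 3.18 and 5.06 CPM on PF. LO mouse 4 and SO mice 1 and 5 did not exceed 1.77 CPM, the level of PF mouse 1 at 12 weeks, and all 5 PF mice exceeded 3 CPM.

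Cd79b, the partner chain, followed Cd79a closely, from 0.521 CPM (SO mouse 4, 12 weeks) to 19.2 CPM (SO mouse 4, 32 weeks), with LO mouse 4 at 12 weeks at 6.08 CPM. Ms4a1 had the fewest counts of the 9, from 1 in SO mouse 4 at 12 weeks to 509 in SO mouse 4 at 32 weeks. Its group medians were 0.388, 0.401 and 0.923 CPM on LO, SO and PF at 12 weeks and 1.24, 3.40 and 2.35 CPM at 32 weeks. The LO median of Ms4a1 at 32 weeks was thus the lowest of that time, while all 5 LO mice, the highest being mouse 3 (5.75 CPM), lay within the SO range of 0.529 to 15.1 CPM.

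Among the secretory genes, Jchain spanned 70.1-fold and Mzb1 28-fold between mice, against 44.2-fold for Cd79a and 494-fold for Ms4a1. Jchain in mice 1 to 5 at 12 weeks was at 31.7, 17.2, 35.2, 52.2 and 42.4 CPM on LO, 16.7, 24.5, 31.0, 24.4 and 34.0 CPM on SO, and 47.0, 345, 426, 11.2 and 24.7 CPM on PF. LO mouse 4, which was high for Cd79a, was at 52.2 CPM of Jchain and so near the rest of its group, whereas PF mice 2 and 3 were high for both genes. At 32 weeks Jchain was at 605, 403, 782, 73.9 and 680 CPM on LO, 46.2, 257, 421, 357 and 40.5 CPM on SO, and 225, 251, 211, 239 and 664 CPM on PF. Every LO mouse at 32 weeks exceeded every LO mouse at 12 weeks, and the same held for SO. On PF the range at 12 weeks enclosed 4 of the 5 mice at 32 weeks.

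Mzb1 ranged from 0.522 CPM (PF mouse 4, 12 weeks) to 14.6 CPM (LO mouse 3, 32 weeks), with group medians of 1.35, 0.702 and 1.87 CPM on LO, SO and PF at 12 weeks and 9.17, 5.67 and 6.68 CPM at 32 weeks. Pou2af1 ranged from 0.489 CPM (PF mouse 5, 12 weeks) to 23.1 CPM (LO mouse 5, 32 weeks), with medians of 1.37, 0.983 and 1.72 CPM and then 17.2, 8.36 and 5.43 CPM. The PF mice 2 and 3 at 12 weeks reached 12.0 and 22.9 CPM of Pou2af1, within the range of the LO mice at 32 weeks.

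Ighm, the most counted of the 9 in every mouse, spanned 70.5-fold between mice. At 12 weeks it was at 221, 108, 345, 430 and 218 CPM on LO, 141, 181, 190, 208 and 240 CPM on SO, and 372, 2222, 4257, 117 and 154 CPM on PF. The 5 SO mice lay closest together, with a coefficient of variation of 18.8%, and the 5 PF mice farthest apart, with 127%. At 32 weeks Ighm was at 7059, 3926, 7579, 542 and 4757 CPM on LO, 497, 2093, 3799, 2846 and 244 CPM on SO, and 1474, 1722, 1300, 2066 and 4144 CPM on PF. In the LO mouse where it stood highest in rank, Ighm was the gene with rank 6 by counts in the whole VP library, and its median rank was 642 on SO at 12 weeks and 11 on LO at 32 weeks.

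Igha, which marks IgA-producing cells, spanned 394-fold between mice. At 12 weeks it was at 65.6, 13.1, 11.8, 55.3 and 54.9 CPM on LO, 9.82, 11.1, 16.3, 2.30 and 21.98 CPM on SO, and 30.7, 133, 20.6, 1.37 and 36.6 CPM on PF. PF mouse 3, the highest of its group for Ighm, was below 3 of the other 4 for Igha. At 32 weeks Igha was at 151, 122, 369, 7.55 and 541 CPM on LO, 21.6, 127, 145, 62.3 and 25.9 CPM on SO, and 172, 57.6, 34.4, 142 and 469 CPM on PF, so that all ranges overlapped. Igkc, the κ light chain shared by most mouse antibodies, tracked Ighm, with medians of 129, 110 and 184 CPM on LO, SO and PF at 12 weeks and 2582, 1073 and 1036 CPM at 32 weeks.

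**Figure D2:**
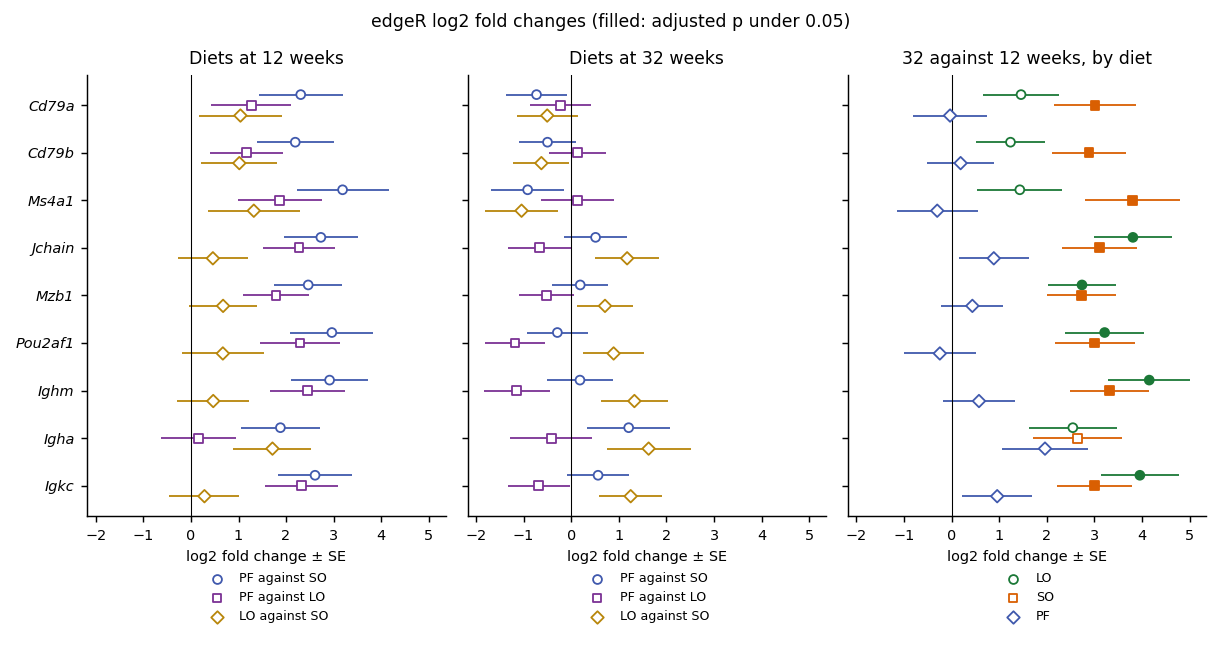
Log2 fold changes of the 9 genes with their standard errors from edgeR, for diets at 12 weeks, diets at 32 weeks and 32 against 12 weeks on each diet; filled symbols passed an adjusted p of 0.05. Filled symbols appear on LO (5 genes) and SO (8 genes) in the comparison of times, and none appear between diets.

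The first question was whether diet changed these genes after 12 weeks. All 9 had higher means on PF than on SO, with log2 fold changes from 1.88 (Igha) to 3.19 (Ms4a1) and a median of 2.61, against a median of -0.01 over all genes tested. For Ighm the means were 1425 CPM on PF and 192 CPM on SO (log2 fold change 2.91, SE 0.81, adjusted p = 0.204), and for Jchain they were 171 and 26.1 CPM (log2 fold change 2.73, SE 0.77, adjusted p = 0.221). None of the 9 passed an adjusted p of 0.05 in edgeR, nor did any of the 15873 genes tested (0%), although 9 of 9 had an unadjusted p under 0.05 and were higher in PF, as were 6.14% of all genes. With the DESeq2 test 3 of the 9 were up-regulated on PF, Ighm (adjusted p = 0.0104), Jchain (0.0365) and Pou2af1 (0.045), beside 1.31% of all genes. For 8 of the 9, only 3 PF mice exceeded the highest SO mouse, and for Ms4a1 it was 4. These differences rested on PF mice 2 and 3, which were picked for being high in these genes. A fit without them was bound to give smaller differences and cannot decide whether the diets differed. In that fit, added after the data were seen, log2 fold changes of PF against SO ran from -0.10 to 0.91. Mean Ighm on PF was then 215 CPM (n = 3). In edgeR or DESeq2 0 of the 9 passed, at an adjusted p of 1 wherever one was given, and DESeq2 gave none for Cd79a.

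PF against LO at 12 weeks used the same PF mice. Log2 fold changes ran from 0.17 (Igha) to 2.44 (Ighm), and 5 of the 9 (Jchain, Mzb1, Pou2af1, Ighm and Igkc) had an unadjusted p under 0.05 and were higher in PF, as were 4.31% of all genes. Adjusted p values ran from 0.428 to 0.974, and 0 of 9 members and 0% of 15873 genes passed in edgeR. Igha had nearly equal means of 44.5 CPM on PF and 40.1 CPM on LO. Without PF mice 2 and 3 the direction turned for all 9, with log2 fold changes of -0.95 to -0.30 and adjusted p values of 0.979 to 0.989. These PF mice were left out for being high, whereas LO mouse 4, with 6.91 CPM of Cd79a, was kept. The change of sign therefore cannot be read as a difference between the diets. In LO against SO at 12 weeks, log2 fold changes ran from 0.28 (Igkc) to 1.71 (Igha), and 0 of 9 members and 0% of all genes passed, with 0 members under an unadjusted p of 0.05 in edgeR and 0 passing in DESeq2.

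After 32 weeks the diets could not be separated by these genes. In PF against SO, log2 fold changes ran from -0.92 (Ms4a1) to 1.21 (Igha), with 5 of 9 above 0. In PF against LO they ran from -1.18 (Pou2af1) to 0.13 (Cd79b), and in LO against SO from -1.05 (Ms4a1) to 1.63 (Igha). The LO and SO means were 4772 and 1896 CPM for Ighm (log2 fold change 1.33, SE 0.70, adjusted p = 1) and 2.37 and 4.83 CPM for Ms4a1 (log2 fold change -1.05, SE 0.77, adjusted p = 1). In these 3 comparisons 0 of 9 members and 0% of 16218 genes passed in edgeR, 0 members had an unadjusted p under 0.05, and 0 members passed in DESeq2. The standard errors, 0.59 to 0.88 on the log2 scale, leave room for differences of a few fold in either direction.

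The second question was what changed between 12 and 32 weeks on each diet. On LO, 5 of the 9 members rose, Ighm, Igkc, Jchain, Pou2af1 and Mzb1, where 2.7% of 16605 genes passed in either direction and 1.74% rose. Mean Ighm went from 264 to 4772 CPM (log2 fold change 4.15, SE 0.86, adjusted p = 0.0146), Igkc from 136 to 2142 CPM (3.95, SE 0.82, adjusted p = 0.0146) and Jchain from 35.8 to 509 CPM (3.81, SE 0.81, adjusted p = 0.0153). For these 3 genes, 3 of 9 members, the mice of the 2 times did not overlap, as for 2.13% of all genes tested. Pou2af1 rose from 1.54 to 14.6 CPM (3.21, SE 0.83, adjusted p = 0.0336) and Mzb1 from 1.28 to 8.70 CPM (2.74, SE 0.71, adjusted p = 0.0338), with LO mouse 4 at 32 weeks within or at the 12-week range in both. Igha (log2 fold change 2.55, adjusted p = 0.112) did not pass in edgeR, while DESeq2 called it (adjusted p = 0.0493). The receptor genes Cd79a (1.46, adjusted p = 0.308), Cd79b (1.24, 0.348) and Ms4a1 (1.43, 0.380) did not pass in either test. For these 3 genes LO mouse 4 at 12 weeks lay far above its group. Their LO medians went from 0.6705 to 5.63 CPM (Cd79a), 0.762 to 4.11 CPM (Cd79b) and 0.388 to 1.24 CPM (Ms4a1). The lack of a call is therefore not evidence that they stayed level on LO.

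The LO calls were close to the threshold. Over all genes, leaving out single mice gave 47 to 1043 calls on LO, where 448 were called with all mice. Without LO mouse 3 of 12 weeks 0 of the 9 passed, with Ighm at an adjusted p of 0.0505 and log2 fold changes of 1.04 to 4.30, and without LO mouse 2 of 12 weeks 2 passed. Leaving out LO mouse 1 or 5 of 12 weeks, or LO mouse 1, 3 or 5 of 32 weeks, left 3 members called. Without the 5 mice with Glycam1 at or above 0.5 CPM, 3 of the 9 passed. Ighm, Jchain and Igkc kept their call under all 9 alternative analyses and lost it only when single mice were left out (1 of 10 mice for Ighm and Igkc, 2 of 10 for Jchain).

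On SO, 8 of the 9 members rose between 12 and 32 weeks in edgeR, all except Igha. Of 16605 genes tested, 6.46% passed in either direction and 5.25% rose. Mean Ighm went from 192 to 1896 CPM (log2 fold change 3.31, SE 0.83, adjusted p = 0.0168), Jchain from 26.1 to 224 CPM (3.11, SE 0.79, adjusted p = 0.0188) and Ms4a1 from 0.346 to 4.83 CPM (3.80, SE 0.99, adjusted p = 0.0212). Cd79b (2.89, SE 0.78, adjusted p = 0.0257), Cd79a (3.01, SE 0.85, 0.0331), Igkc (3.01, SE 0.79, 0.0217), Mzb1 (2.72, SE 0.72, 0.0234) and Pou2af1 (3.01, SE 0.84, 0.0299) rose by similar amounts. The mice of the 2 times did not overlap for 5 of the 9 (Cd79b, Jchain, Pou2af1, Ighm and Igkc), as for 4.9% of all genes, and in each of the other 4 genes 4 of the 5 mice at 32 weeks exceeded all mice at 12 weeks. Igha had means of 12.3 and 76.4 CPM (2.64, SE 0.93, adjusted p = 0.0892 in edgeR). With the DESeq2 test Igha passed too (adjusted p = 0.0342), so that 9 of the 9 were called on SO.

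The SO calls also lay near the threshold. Over all genes, leaving out single mice gave 226 to 1556 calls on SO, where 1073 were called with all mice. Without SO mouse 4 of 32 weeks 0 of the 9 passed, at adjusted p values of 0.0582 to 0.198, while log2 fold changes were still 2.03 to 3.11. Leaving out SO mouse 1, 2, 4 or 5 of 12 weeks left 2, 3, 1 and 3 members called. Without the mice with Glycam1 at or above 0.5 CPM, which among the SO mice removes mouse 4 of 32 weeks alone, 0 passed, at adjusted p values of 0.0835 to 0.223.

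On PF, 0 of the 9 members passed between 12 and 32 weeks, where 0.0301% of 16605 genes passed (5 genes, of which 3, or 0.0181%, rose). Log2 fold changes ran from -0.30 (Ms4a1) to 1.96 (Igha), and Igha alone had an unadjusted p under 0.05. The mean of Ighm was 1425 CPM at 12 weeks and 2141 CPM at 32 weeks (log2 fold change 0.57, SE 0.76, adjusted p = 0.837), and for 0 of the 9 did the 2 times separate, against 0.897% of all genes. The spread of Ighm at 12 weeks was wide, with PF mice 2 and 3 at 2222 and 4257 CPM and PF mice 4 and 5 at 117 and 154 CPM. Not every member followed this order, since PF mouse 3 at 12 weeks had 20.6 CPM of Igha, below every PF mouse at 32 weeks. Without PF mice 2 and 3 of 12 weeks the log2 fold changes were 2.03 to 3.66 and 0 of the 9 passed, at adjusted p values of 0.105 to 0.524. These mice were left out for being high, so the larger fold changes are not evidence of a rise on PF. DESeq2 also called 0 of the 9 with all mice.

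A call on 1 diet and not on another does not show that the diets differ, so the change with time was compared between diets. The PF minus SO difference moved down between 12 and 32 weeks for 9 of 9 members, by log2 values of -0.68 (Igha) to -4.10 (Ms4a1, SE 1.29, adjusted p = 0.247), and 7 of the 9 had an unadjusted p under 0.05 beside 9.49% of all genes. For PF minus LO the shifts were -0.59 (Igha) to -3.58 (Ighm, SE 1.10, adjusted p = 0.470), with 5 of 9 under an unadjusted p of 0.05 beside 7.79% of all genes. For LO minus SO they were -2.37 (Ms4a1, SE 1.30, adjusted p = 1) to 0.95 (Igkc, SE 1.03, adjusted p = 1), below 0 for Cd79a, Cd79b, Ms4a1 and Igha. In all 3 tests of this kind 0 of 9 members and 0% of 16605 genes passed in edgeR, and DESeq2 called 0 members. Without PF mice 2 and 3 of 12 weeks the shifts were -1.77 to 0.65 for PF minus SO (adjusted p 0.799 to 0.999). For PF minus LO they were -0.86 to 0.85 (0.946 to 0.991), and 0 members passed. Since these mice were picked for being high, the smaller shifts cannot decide whether the diets changed alike. These data thus do not establish that the rise on LO or SO differed from the change on PF.

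Other genes of the B cell programme were read from lists. Of 18 B cell surface and signalling genes, 13 rose on SO between 12 and 32 weeks and 0 fell, where 5.25% of all genes rose. The median log2 fold change of the 18 was 2.37 on SO, and 0 passed on LO (median 0.52) or PF (median 0.03). Those with the smallest p on SO were Cd180 (log2 fold change 1.94, adjusted p = 0.0028), Cd72 (2.05, 0.00283), Ly86 (1.35, 0.00681), Fcrla (2.70, 0.00965) and Btk, the kinase downstream of the B cell receptor (1.67, 0.0201). Cd180 and Ly86 encode partners in a receptor complex that is also found on myeloid cells. Of 8 B cell transcription factors, 3 rose on SO, beside 5.25% of all genes, and 0 passed on LO or PF. They were Ikzf3 (2.14, adjusted p = 0.00428), Spib (3.07, 0.0279) and Pou2f2, the partner of the Pou2af1 product (1.73, 0.0402). Pou2f2 had a mean of only 0.151 CPM on SO at 12 weeks. Without SO mouse 4 of 32 weeks 3 of the 18 surface genes (Cd72, Cd180 and Ly86) and 1 of the 8 factors (Ikzf3) rose on SO. In both lists 0 genes passed between diets at either time.

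Of 14 plasma cell identity and secretion genes, 4 rose on LO and 0 fell, where 1.74% of all genes rose. They were Sdc1, also an epithelial gene (log2 fold change 0.80, adjusted p = 0.0146), Irf4 (2.41, 0.018) and Prdm1 (1.34, 0.0223), the transcription factors of plasma cell differentiation, and Tnfrsf13b, which encodes the TACI receptor (2.04, 0.0382). On SO, where 6.46% of all genes passed in either direction, Tnfrsf13b (2.03, adjusted p = 0.0251) and Sdc1 (0.62, 0.0227) rose. The endoplasmic reticulum genes Creld2 (-0.67, 0.0113) and Derl3 (-0.70, 0.0384) fell there. Irf4 on SO had a log2 fold change of 1.71 and an adjusted p of 0.0521. Without LO mouse 3 of 12 weeks 0 of the 14 passed on LO, and without SO mouse 4 of 32 weeks only Creld2 passed on SO. The median over the 14 genes was near 0 on all 3 diets (-0.02 on LO, -0.10 on SO and 0.03 on PF). Several of the 14 had high levels in all groups. On SO at 12 weeks the medians were 452 CPM for Sec11c, 352 for Xbp1, 257 for Txndc5, 147 for Creld2 and 99.0 for Derl3. Irf4 was at 1.76 and Prdm1 at 1.64 CPM. Which cells gave these levels was not tested, so the list median and the falls of Creld2 and Derl3 are not read as plasma cell changes.

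Among other immunoglobulin constant genes, 6 were found and 5 tested. Over all genes, 1.74% rose on LO and 5.25% on SO. The λ light chain gene Iglc2 rose on LO (log2 fold change 4.42, adjusted p = 0.0146), and Ighg1 (6.57, 0.0208) and Ighg2c (5.15, 0.0282) rose on SO, where Ighg1 was at 0 in 3 of the 5 mice at 12 weeks and its log2 fold change depends on the offset added to counts. Of 12 genes of B and plasma cell attraction, survival or antibody transport, 10 were tested. Tnfsf13b, which encodes the survival factor BAFF (0.89, adjusted p = 0.0199), and Pigr, the polymeric immunoglobulin receptor (0.66, 0.0391), rose on SO, and 0 passed on LO or PF. Without SO mouse 4 of 32 weeks 0 genes of these lists passed on SO, and without LO mouse 3 of 12 weeks Iglc2 still rose on LO. Cxcl13, the chemokine that draws B cells, had log2 fold changes of 1.59 on LO (adjusted p = 0.0686), 0.78 on SO (0.393) and 0.06 on PF (0.980).

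Markers of other cells were read in the same way, and some of them also rose between times. All 9 T cell genes rose on SO between 12 and 32 weeks, and 0 of 9 passed on LO or PF. They were led by Cd3d (log2 fold change 3.88, adjusted p = 0.00261), Cd3g (2.24, 0.00272), Trbc1 (2.37, 0.00755), Trbc2 (2.69, 0.00948) and Cd2 (2.31, 0.0108). Cd3d was at only 0.0615 to 0.133 CPM on SO at 12 weeks, so its fold change starts from very few counts. On SO 5.25% of all genes rose, and without SO mouse 4 of 32 weeks 2 of the 9, Cd3d and Cd3g, did. Their summed level was 3.10 to 4.85 CPM on SO at 12 weeks and 7.97 to 48.9 CPM at 32 weeks, where the highest value was that of SO mouse 4 and the other 4 mice were at 7.97 to 14.1 CPM. It was 2.79 to 14.5 CPM on LO and 4.78 to 16.3 CPM on PF at 12 weeks, and 7.30 to 14.5 CPM and 7.73 to 17.8 CPM at 32 weeks. Of 8 macrophage genes, Adgre1 (1.24, adjusted p = 0.0154), Cd68 (1.22, 0.0293) and C1qb (1.06, 0.0337) rose on SO, and their list summed to 103 to 137 CPM at 12 weeks and 149 to 294 CPM at 32 weeks there. Of 7 dendritic cell genes, Cd209a rose on LO (1.56, adjusted p = 0.0463), beside 1.74% of all genes, and Xcr1 on SO (1.66, 0.0118), beside 5.25%. Without SO mouse 4 of 32 weeks 0 of the macrophage and dendritic genes passed on SO, and without LO mouse 3 of 12 weeks 0 passed on LO. The part of these cells in the members' changes was not tested.

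Of 7 lymph node stroma and venule genes, 4 passed the filter and 0 were called. Cxcl13 and Ccl21a had the smallest p (log2 fold changes 1.59 and 0.84 on LO between times, adjusted p = 0.0686 and 0.158), followed by Fcgbp (0.48 in PF against LO at 32 weeks, 0.660). Madcam1 and Chst4 were at 0 in 18 of 30 mice each, and Madcam1 never exceeded 3 counts. The follicular B cell genes Cr2 and Fcer2a, which encode CD21 and CD23 and were singled out here with Glycam1 after their values were seen, reached 4.91 and 5.32 CPM in SO mouse 4 at 32 weeks and 3.90 and 4.26 CPM in PF mouse 2 at 12 weeks. They reached 1.998 and 3.06 CPM in PF mouse 2 and 2.12 and 1.49 CPM in PF mouse 3 at 32 weeks, and these 4 mice, all with Glycam1 at or above 0.5 CPM, had the highest Cr2. LO mouse 5 at 32 weeks, the other mouse with Glycam1 at or above 0.5 CPM, had 0.270 CPM of Cr2 and 0.337 CPM of Fcer2a. LO mouse 4 at 12 weeks had 0.600 CPM of Cr2 and 1.96 CPM of Fcer2a. PF mouse 3 at 12 weeks, with 4257 CPM of Ighm, had 0.487 CPM of Cr2 and 0.0348 CPM of Glycam1. Whether lymph node tissue entered a dissection was not tested.

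The remaining lists described the gland. Over all genes, 2.7% passed in either direction on LO and 6.46% on SO, and 1.74% and 5.25% rose. Of 4 basal epithelial genes, Krt15 (1.24, adjusted p = 0.00464), Trp63 (0.64, 0.0123) and Krt5 (0.90, 0.0174) rose on LO, and Krt15 (0.72, 0.018) and Trp63 (0.44, 0.0332) on SO. Of 12 prostate epithelial genes, Sbp alone was called, lower on LO (-0.81, 0.041) and SO (-0.96, 0.01). A single call among 12 is not read as a change of the list. Without LO mouse 3 of 12 weeks Krt15 and Trp63 alone of these genes passed on LO, and without SO mouse 4 of 32 weeks Sbp alone passed on SO. No gene was called by edgeR among 5 smooth muscle genes (smallest p for Myh11, -0.38, adjusted p = 0.390 in PF against SO at 32 weeks, then Acta2, -0.27, 0.429, on PF between times and Tagln, -0.26, 0.309, on LO), 5 adipocyte genes (Fabp4, Plin1 and Cidec, 1.90, 1.84 and 1.85 in PF against SO at 32 weeks, 0.381, 0.455 and 0.463) or 6 blood genes (Hbb-bs and Hbb-bt, 2.38 and 2.29 on PF between times, 0.0873 and 0.0926). Of 6 seminal vesicle and coagulating gland genes only Tgm4 passed the filter (4.02 in LO against SO at 32 weeks, adjusted p = 1), and Svs6 was at 0 in all 30 mice.

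**Figure D3:**
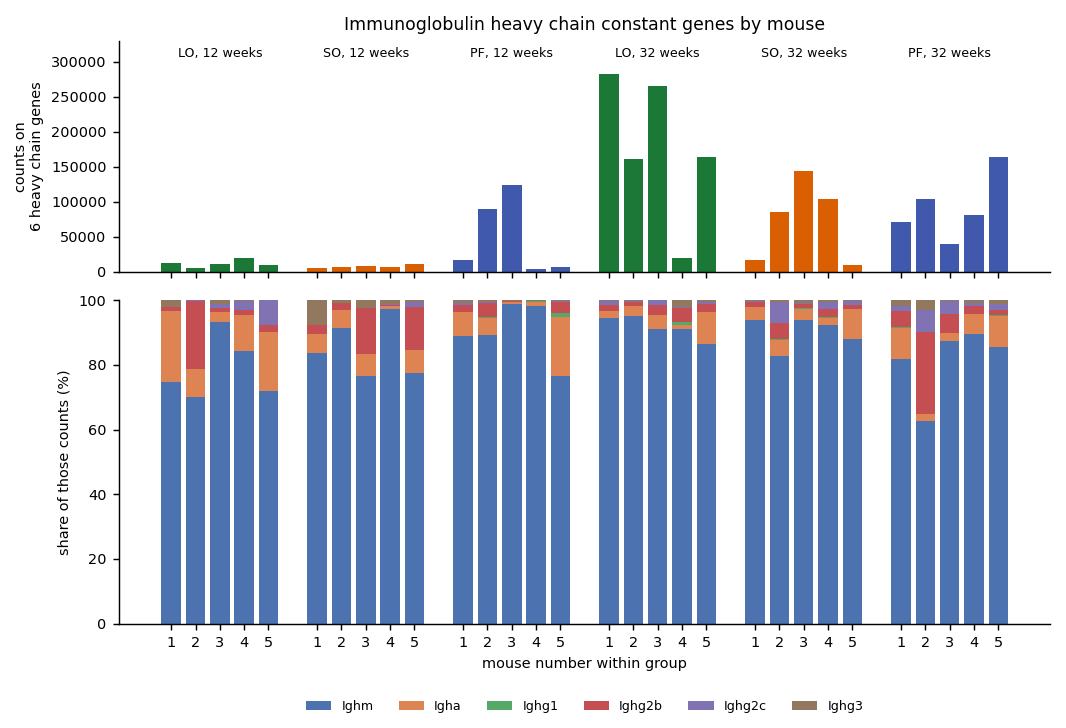
Upper panel, counts on 6 heavy chain constant genes in each mouse; lower panel, the share of those counts on Ighm, Igha and the 4 Ighg genes. Ighm held most of the counts in every mouse, and PF mouse 2 at 32 weeks had the largest share of Ighg2b.

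The antibody classes were compared within mice as shares of the counts on Ighm, Igha, Ighg1, Ighg2b, Ighg2c and Ighg3. Ighm held the largest share in every mouse, with group medians of 74.6% to 92.4%. By group the Ighm share had a lowest, median and highest value of 70.2%, 74.6% and 93.2% on LO, 76.7%, 83.8% and 97.2% on SO and 76.7%, 89.2% and 98.9% on PF at 12 weeks. At 32 weeks the same values were 86.4%, 91.1% and 95.1% on LO, 82.6%, 92.4% and 93.8% on SO and 62.6%, 85.6% and 89.5% on PF. The PF mice at 32 weeks included the lowest share of all, yet the ranges of the 3 diets overlapped at both times.

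Igha held a median of 10.9%, 5.82% and 5.35% on LO, SO and PF at 12 weeks and 2.95%, 4.08% and 6.14% at 32 weeks, so that the median share on LO and SO was lower at 32 weeks and on PF higher, with overlapping ranges on each diet. The 4 Ighg genes together held medians of 4.69%, 10.4% and 3.78% at 12 weeks and 3.73%, 2.79% and 8.59% at 32 weeks. In PF mouse 2 at 32 weeks they reached 35.3%, and Ighg2b alone held 25.3% (95% Wilson interval 25.1% to 25.6%). In LO mouse 2 at 12 weeks, Ighg2b held 21.1% (19.96% to 22.3%) of far fewer counts. These intervals cover counting error only, and counts on the similar Ighg genes are uncertain because read pairs with more than 1 alignment were set aside.

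**Figure D4:**
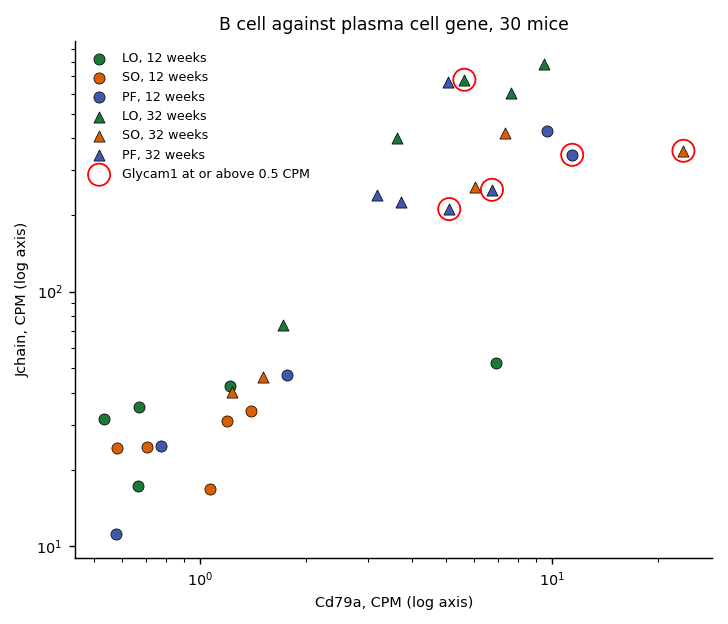
Jchain against Cd79a in CPM, both on log axes, with 1 point per mouse, circles for 12 weeks and triangles for 32 weeks; red rings mark mice with Glycam1 at or above 0.5 CPM. SO mouse 4 at 32 weeks lies farthest to the right, and LO mouse 4 at 12 weeks lies below the trend with high Cd79a and low Jchain.

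The balance of plasma cell to B cell transcripts, taken as counts of Jchain per count of Cd79a in the same mouse, was 59.3, 25.8, 52.5, 7.56 and 35.0 in LO mice 1 to 5 at 12 weeks and 79.3, 111, 82.5, 43.0 and 121 at 32 weeks. On SO it was 15.7, 34.6, 25.9, 41.9 and 24.4 and then 30.7, 42.7, 57.2, 15.2 and 32.8. On PF it was 26.6, 30.3, 44.0, 19.3 and 31.7 and then 60.3, 37.3, 41.4, 75.2 and 131. The LO mice at 32 weeks had the highest median (82.5, against 32.8 on SO and 60.3 on PF), and only LO mouse 4 lay in the SO range of that time. LO mouse 4 at 12 weeks and SO mouse 4 at 32 weeks had the lowest ratios of all. The ratio was not tested between groups. Counts of Igkc per count of Ighm varied far less, from 0.282 to 0.785.

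The 9 genes moved together from mouse to mouse. All 36 pairs were positively correlated over 30 mice on the log2 CPM scale, with Pearson's r from 0.667 (Ms4a1 and Igha) to 0.994 (Jchain and Igkc) and Spearman's rho from 0.644 (Cd79a and Igha) to 0.988 (Ighm and Igkc). By two-sided permutation tests, adjusted p values over the 36 pairs were at most 6e-05 for r and 0.00012 for rho, and most raw values were 1e-05, the smallest the permutations can give. After centring each gene on its group mean, r was 0.549 (Cd79a and Igha) to 0.989 (Cd79a and Cd79b), and the adjusted permutation p was at most 0.00317. Within 12 weeks r ran from 0.442 to 0.993 and within 32 weeks from 0.411 to 0.984, and without the 2 mice farthest from the median of the first gene it ran from 0.649 to 0.993.

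Within this common movement the receptor genes and the secretory genes were each closer to one another. Cd79a and Cd79b had r = 0.990 and rho = 0.973, and Jchain and Ighm r = 0.989 and rho = 0.986, each with a permutation p of 1e-05 and an adjusted p of 1.09e-05. Cd79b and Ighm were less alike, with r = 0.862 and rho = 0.828 (permutation p of 1e-05 for each). At 32 weeks alone their r was 0.708, against 0.974 for Cd79a with Cd79b and 0.978 for Jchain with Ighm. For each of the other members, the lowest r was that with Igha.

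Among 16584 genes outside the 9, those whose pattern was most like Cd79a included Tnfrsf13c (Spearman's rho 0.940 over 30 mice), Siglecg (0.937), Traf3ip3 (0.936), Spib (0.925), Gm15987 (0.923), Napsa (0.921) and Cd22 (0.916). Tnfrsf13c encodes the BAFF receptor, and Cd22 encodes a coreceptor of the B cell receptor. Those most like Jchain were Tnfrsf13b (0.951), Ighv9-3 (0.944), Irf4 (0.938), Gpr55 (0.936), Igkj5 (0.927), Iglv1 (0.926), St6gal1 (0.925) and Ighv6-3 (0.917). Ighv9-3, Ighv6-3 and Iglv1 are variable segments and Igkj5 a joining segment of antibody genes, and St6gal1 encodes a sialyltransferase of the secretory pathway. The 2 sets had no gene in common. All these values share the same libraries and scaling.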

How the data were processed

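The authors aligned paired reads from stranded mRNA libraries to GRCm38.p6 and counted read pairs per gene with HTSeq. The deposited tables, one for each mouse, hold these raw counts with no scaling. The build, TopHat2 and HTSeq are named in the submitters' processing notes, and their versions, the counting mode and the annotation are not given in the sources used here. Diet, time and mouse number came from the sample labels. Rows that name no gene were left out of library sizes; pairs without a gene were 6.67% to 12.2% and ambiguous pairs 0.831% to 1.18% of all pairs in a library. Pairs that span a variable and a constant segment, or similar antibody genes, can be lost as ambiguous or non-unique, which lowers the immunoglobulin counts.

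Symbols and positions were taken from GENCODE M21. In edgeR 4.0.16 (R 4.3.3), genes were filtered by filterByExpr with diet and time as the group, scaled by TMM and tested with the two-sided quasi-likelihood F test, with Benjamini-Hochberg adjustment over all genes tested and a threshold of 0.05. Diets were compared in a fit of the 15 mice of one time, and times and changes of a diet difference with time in a fit of all 30. DESeq2 1.42.0 (Wald test) was an alternative, as were RLE size factors, no filter, other sets of mice, a robust fit, a replicate block and leaving out each mouse. Correlations used log2 CPM (prior count 2) and 100000 permutations (NumPy 2.4.6). CPM in the text are TMM-scaled. Named genes were the 9 members; from each list those called in a comparison, at most 5 per list and comparison; in lists with no call, up to 3 with the smallest unadjusted p; and 8 genes each most like Cd79a and Jchain. Some genes that this rule names are not reported here. The members and lists were chosen with earlier results of these data known. The main test was tested on simulated counts with known changes.

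Libraries of a group were compared pairwise; the smallest chi-square per degree of freedom over 60 pairs was 24.5, so no pair agreed within sampling noise.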

Additional observations from a re-analysis of the deposited data

Results flagged for a closer look

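In 9 of 54 combinations of member and group, 1 mouse stood apart from the other 4 by Dixon's test at the 95% level. For normal values chance gives this in about 1 of 20. The test was run on CPM without logs and the members were correlated, so the 9 cannot be read against that rate. In LO at 12 weeks, mouse 4 was high for Cd79a (6.91 CPM, the others 0.534 to 1.21), Cd79b (6.08 CPM, the others 0.565 to 1.21), Ms4a1 (2.66 CPM, the others 0.191 to 0.698) and Pou2af1 (3.03 CPM, the others 0.826 to 1.38). Its T cell genes summed to 14.5 CPM, against at most 6.59 CPM in the other 4 LO mice.

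In SO at 32 weeks, mouse 4 was high for Cd79a (23.6 CPM, the others 1.23 to 7.35) and Ms4a1 (15.1 CPM, the others 0.529 to 4.21). In PF at 32 weeks, mouse 5 was high for Jchain (663.9 CPM, the others 211 to 251) and Ighm (4144 CPM, the others 1300 to 2066). In PF at 12 weeks, mouse 2 was high for Igha (133 CPM, the others 1.37 to 36.6).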

How the results depend on the processing

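Of 12 counts of members called, 9 stayed at 0 under every alternative run and every left-out mouse. For PF against SO at 12 weeks, DESeq2 called 3 members in place of 0, and 0 without PF mice 2 and 3 (added after the data were seen). For 32 against 12 weeks on LO (5 called), 3 were called when only the groups compared were fitted, without the mice numbered 1, with mice 1 to 4 at 32 weeks, and without the mice with Glycam1 at or above 0.5 CPM (an alternative added after the data were seen); leaving out single mice gave 0 to 6. On SO (8 called), the fit without the Glycam1 mice called 0, and leaving out single mice gave 0 to 8. DESeq2 called Igha in addition on both diets, which made 6 members on LO and 9 on SO. The cause was not tested. Over all genes, DESeq2 called, for PF against SO, 225 (12 weeks) and 109 (32 weeks), for PF against LO 75 and 85, for LO against SO 0 and 6, and 1089, 1494 and 52 for the times on LO, SO and PF, where edgeR called 448, 1073 and 5. Over the other settings, left-out mice included, the edgeR counts were 47 to 1043 on LO and 188 to 1556 on SO.

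Mice of different diets share only a number: the deviations of same-numbered mice correlated above 0.1 in 5 of 15 pairs at 12 weeks and 10 of 15 at 32 weeks. With the replicate number as a block, 3 members were called between times on LO and 1 on SO.

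Of 2402 member fold changes under these settings, 0 turned a call to the other sign, 79 lost a call and 8 gained one. The median correlation was 0.874 within 12 weeks and 0.81 within 32 weeks, against 0.882. Plain library totals moved 0 of the mean CPM values by more than 1 SD. Ms4a1, with as little as 1 count in a mouse, is the member most limited by depth.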
